A study of Sinonovacula constricta with 9 samples.

Results

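Whole juveniles of the razor clam Sinonovacula constricta exposed for 6 h to water of 25 psu (high salinity) were compared with whole juveniles exposed for 6 h to 5 psu (low salinity), by RNA sequencing. The psu is the practical salinity unit, close to the salt content in grams per kilogram of water. The comparison used the 6 libraries whose labels name these salinities, 3 at 25 psu and 3 at 5 psu, of 9 in the series. The other 3, at 15 psu, are described in the series as the control at optimal salinity and were left out here, so all values below set one salinity stress against the other and not against an unstressed state. All animals were juveniles on day 15 after fertilization, and no strain, genotype or drug is given. Neither the number of animals in a library nor separate rearing of the replicates is given in the labels. The p-values below therefore compare the salinities with the spread among these 6 libraries, which may be technical.

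Sinonovacula constricta is a bivalve mollusc that burrows in estuarine mudflats, where rain and tides change the salinity of the water. Bivalves are osmoconformers: the salt content of their body fluids follows that of the surrounding water. Their cells keep their volume by moving inorganic ions and by raising or lowering pools of small organic solutes, free amino acids above all. The transcripts measured here are unigenes, sequences from an assembly made without a genome that carry numbered cluster identifiers. The files pair no identifier with a gene name, so the members of these pathways could not be picked out and no function or genome position is given.

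Total estimated counts ran from 15897903 to 17257637 in the 3 libraries at 25 psu and from 16186592 to 18110431 in the 3 at 5 psu. Of 246672 unigenes, 65183 had enough counts in these 6 libraries to be tested, and they held 97.8 to 98.3% of the counts of each library. Differences were tested with edgeR's quasi-likelihood F test on the 6 libraries alone, and a unigene was called where its Benjamini-Hochberg adjusted p was under 0.05. Fold changes are 25 over 5 psu throughout. Abundance is given in FPKM (fragments per kilobase of sequence, relative to all fragments of the library), and levels in CPM (read counts scaled to library size) where depth matters. In whole animals, fewer cells of a type and less RNA per cell cannot be told apart.

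The libraries at 25 psu were closely alike, and those at 5 psu were more spread out. On the first principal component of log2 CPM, which held 39.1% of the variance of these 6 libraries, scores were 100.6, 105.9 and 100.4 at 25 psu and -117.3, -99.6 and -90.0 at 5 psu. The second component, with 18.7% of the variance, left the 25 psu libraries between -21.5 and 19.4 and spread those at 5 psu over 124.0, -26.2 and -113.7. Pearson correlations across unigenes were 0.911 to 0.913 within 25 psu, 0.847 to 0.865 across the salinities and 0.883 to 0.909 within 5 psu. The biological coefficient of variation that edgeR estimated within a group was 0.251 at 25 psu and 0.314 at 5 psu. The standard deviation of log2 CPM among 3 replicates had a median of 0.219 at 25 psu and 0.269 at 5 psu, and it was larger at 5 psu for 58.9% of the tested unigenes. That share was 70.3% in the class of 100 FPKM and over.

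Most of the transcript pool was common to both salinities. The part of the FPKM total that 2 libraries shared, unigene by unigene, was 87.9 to 89.5% for pairs of libraries at 25 psu, 80.3 to 82.7% for the 9 pairs across salinities and 81.9 to 86.6% for pairs at 5 psu. The pairs at 25 psu lay above all cross pairs, while 1 pair at 5 psu, replicates 1 and 3, shared 81.9% and lay within the range of the cross pairs. Between the group means, 14.6 percentage points of the pool differed. The 100 unigenes that gained most at 25 psu made up 22.7% of the gain, and 59 of them were called higher. The 100 that lost most made up 24.5% of the loss, and 36 of them were called lower. Over all tested unigenes 5.58% were called higher and 3.85% lower. Both lists were picked for their change in these same libraries, so a larger share of calls among them is built in. The largest single gain was in a unigene at 2664, 2684 and 2706 FPKM at 25 psu, against 919, 1242 and 1493 FPKM at 5 psu (log2 fold change 0.97, SE 0.16, edgeR adjusted p = 0.00911). Its 3 libraries at 25 psu differed little from one another, and all lay above the 3 at 5 psu. The largest single loss was in a unigene at 11582, 8714 and 6945 FPKM at 25 psu, against 9725, 18165 and 8777 FPKM at 5 psu. There the groups overlapped, replicate 2 at 5 psu stood highest, and no difference was detected (log2 fold change -0.62, SE 0.23, edgeR adjusted p = 0.139). The pair was singled out after the values were seen, and each is very short by the effective length that the deposited count and FPKM imply (27.5 and 2.22 nucleotides), which makes their FPKM values uncertain.

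**Figure D1:**
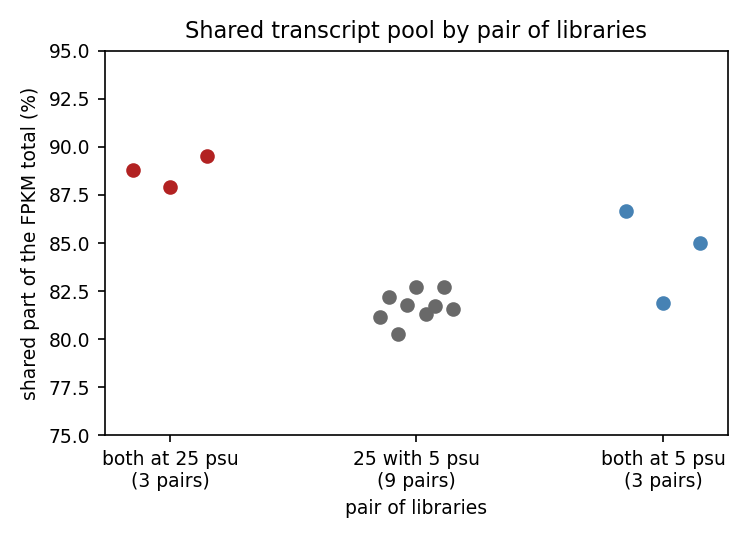
Part of the FPKM total (percent) that each pair of libraries shared, with 1 point per pair. Pairs at 25 psu lie at 87.9 to 89.5%, above the pairs across salinities at 80.3 to 82.7%, while pairs at 5 psu run from 81.9 to 86.6% and reach into the cross pairs.

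Between 25 and 5 psu, 3636 unigenes were called higher and 2508 lower at 25 psu, 5.58% and 3.85% of the 65183 tested (edgeR adjusted p under 0.05), or 9.43% in both directions together. The median change was 2.21-fold among those higher at 25 psu and 2.44-fold among those lower. Neither median moved when the unigenes without any count at one salinity were given 3 counts over its libraries as a bound. Those unigenes, 43 higher and 86 lower, all had fitted folds of at least 16, so the bound had little scope to move a median. Over all tested unigenes the median log2 fold change was -0.02, with 5% below -1.22 and 5% above 1.20. All 6144 called unigenes had no overlap between the libraries of the salinities, but so had 32.3% of all tested unigenes (16.9% higher and 15.4% lower at 25 psu), and 14942 of these were not called. At an unadjusted p under 0.05 there were 16027. Calls of at least 2-fold numbered 3777, which is 5.79% of those tested. A further 5690 unigenes had a fitted change of at least 2-fold without being called.

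The number of calls fell when a single library was left out and with a technical covariate. It was 2994, 2674 and 3025 without replicates 1, 2 and 3 at 25 psu, and 4925, 2735 and 5903 without replicates 1, 2 and 3 at 5 psu. Leaving out a library also leaves 3 in place of 4 residual degrees of freedom, so fewer calls do not by themselves show that the library drove them. In each of these fits every called unigene that was still measured kept its direction, and 41.0 to 76.0% of them were called again. The calls had no overlap between the salinities, so leaving out a library could hardly turn a direction. The kept directions are therefore no test of robustness. The deposited values also imply a difference in fragment length between the groups. Each library's offset in effective length, in nucleotides relative to the mean of the 6, was -4.14, -2.24 and -4.05 at 25 psu and 3.83, -1.86 and 8.46 at 5 psu, so the groups did not overlap (difference -6.96, exact two-sided permutation p = 0.1, the smallest that 3 against 3 allows). With this offset as a covariate, which leaves 3 in place of 4 residual degrees of freedom, 1063 unigenes were called, 654 higher and 409 lower. The 6144 calls all kept their direction in that fit. Their absolute log2 fold changes had a median of 1.20 without the covariate and 1.17 with it, and the SEs had medians of 0.20 and 0.31. Replicate 2 at 5 psu (-1.86) lay close to replicate 2 at 25 psu (-2.24), so the offset follows salinity only in part. As the groups did not overlap, offset and salinity cannot be fully told apart in these libraries.

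Rises at 25 psu outnumbered falls among small changes, and falls outnumbered rises among very large ones, the second of which did not hold in every fit. Of the calls under 2-fold, 1488 were higher and 879 lower. From 2-fold to under 4-fold, 1542 were higher and 985 lower. From 4-fold to under 8-fold the numbers were 406 higher and 363 lower. At 8-fold and over there were 200 higher and 281 lower, and at 16-fold and over 107 higher and 183 lower. These large fitted folds rest on few counts on the low side. Of the 107 at least 16-fold higher, 43 had 0 counts in all 3 libraries at 5 psu and 42 had 1 to 9 counts there in all. Of the 183 at least 16-fold lower, 86 had 0 counts in all libraries at 25 psu and 74 had 1 to 9. A fitted fold against 0 counts is no bound. The excess of falls at 8-fold and over turned without replicate 1, 2 or 3 at 5 psu (279 higher and 233 lower, 220 and 175, 330 and 268). Without replicate 1, 2 or 3 at 25 psu it held (148 higher and 306 lower, 152 and 291, 163 and 337). The reason was not tested. This excess also turned with the length offset as a covariate (130 higher and 123 lower) and with limma on log2(FPKM + 1) with and without the filter (37 and 25, 77 and 73). With limma-voom it was nearly level (101 and 100). At 16-fold and over, falls still outnumbered rises in these fits (67 higher and 85 lower, 7 and 11, 26 and 34, and 59 and 71 with limma-voom). They did not without replicate 1, 2 or 3 at 5 psu (185 higher and 174 lower, 147 and 131, 221 and 200). The excess of rises under 2-fold held in all 20 alternative fits of single unigenes. Taken pair by pair, 909 unigenes were at least 2-fold higher in all 9 pairs of a 25 psu with a 5 psu library and 658 at least 2-fold lower, of which 878 and 626 were called. At least 8-fold in all 9 pairs, on log2(CPM + 0.5), were 25 higher and 24 lower, all of them called. Over all tested unigenes 5.58% were called higher and 3.85% lower. A fold held in all pairs picks unigenes whose groups lie apart in these same libraries, so a high share of calls among them is built in.

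**Figure D2:**
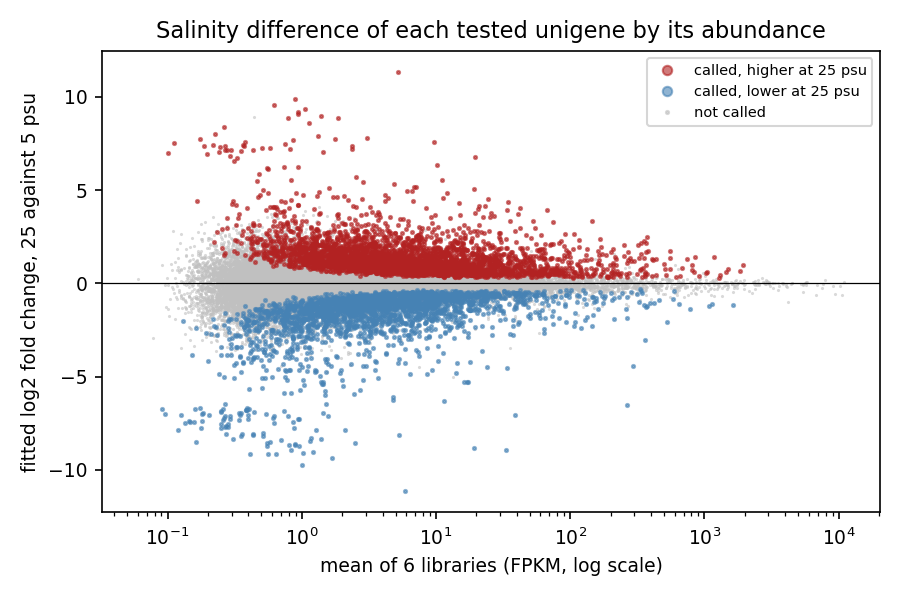
Fitted log2 fold change of 25 over 5 psu (y axis) against the mean FPKM of the 6 libraries (x axis, log scale), 1 point per tested unigene, with those called higher (3636) and lower (2508) at 25 psu in colour. The groups of points beyond about 6.5 on the y axis and under about 1 FPKM hold unigenes at or near 0 counts at one salinity.

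Among the called unigenes, abundant ones were mostly higher at 25 psu, and rare ones more often lower. Of the 939 tested unigenes with a mean of 100 FPKM and over, 143 were called higher and 59 lower, or 21.5%, against the 9.43% called over all classes. From 10 to 100 FPKM, 1046 were higher and 475 lower of 7793 (19.5%). From 1 to 10 FPKM, 2137 were higher and 1534 lower of 39976 (9.18%). Under 1 FPKM, 310 were higher and 440 lower of 16475 (4.55%). Rises thus made up 70.8%, 68.8%, 58.2% and 41.3% of the calls in these classes. Over all tested unigenes the median log2 fold change in the same order was -0.04, 0.01, -0.01 and -0.08, so no class shifted much as a whole. Libraries did not overlap for 218 higher and 192 lower at 100 FPKM and over, nearly level. In the other classes these numbers were 2044 and 1381, 7045 and 6265, and 1715 and 2226. Among the calls, the excess of rises in the 3 classes from 1 FPKM up held in all 20 alternative fits of single unigenes. Those fits took in other scalings, filters, tests and left-out libraries. The excess of falls under 1 FPKM turned without replicate 2 at 5 psu (167 higher and 136 lower) and without replicate 3 at 5 psu (358 higher and 288 lower), and was level with the length offset as a covariate (40 and 40).

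The sizes of the changes ran the other way. The median call was 4.41-fold higher or 5.54-fold lower under 1 FPKM, 2.27-fold higher or 2.31-fold lower from 1 to 10 FPKM, 1.86-fold higher or 1.79-fold lower from 10 to 100 FPKM, and 1.72-fold higher or 1.99-fold lower at 100 FPKM and over. The precision differed as well: the median SE of the log2 fold change over all tested unigenes was 0.49 under 1 FPKM and 0.12 at 100 FPKM and over, so that under 1 FPKM only 18 of the 750 calls were of less than 2-fold, while at 100 FPKM and over 118 of 202 were. Without a call as condition, the median absolute log2 fold change was 0.54, 0.36, 0.30 and 0.23 from the rarest to the most abundant class. The median SE fell in the same order, with 0.49, 0.28, 0.17 and 0.12. An absolute value grows with its error, so these medians do not show that rare unigenes changed more. The class of 100 FPKM and over held 306 unigenes with an implied effective length under 300 nucleotides, 109 of them under 50, for which a small error in length has a large effect on FPKM.

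**Figure D3:**
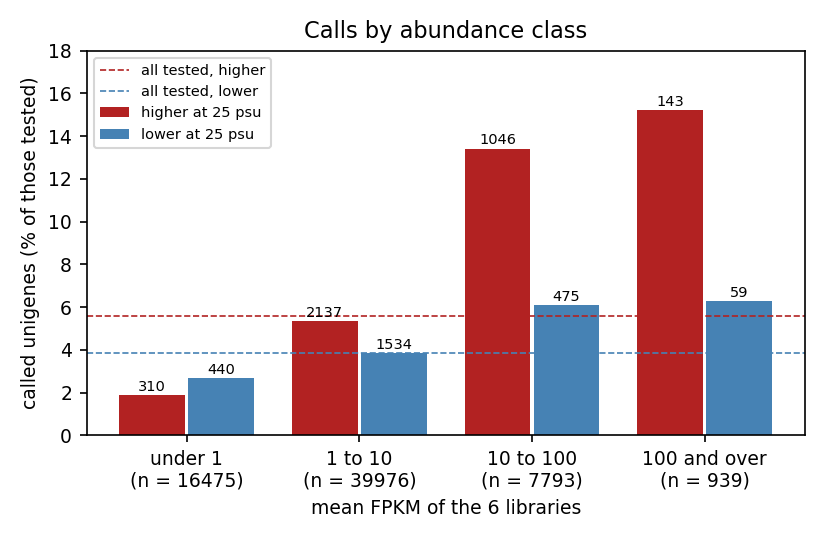
Share of tested unigenes (percent) called higher and lower at 25 psu in 4 classes of mean FPKM, with the number of calls above each bar and dashed lines at the shares over all tested unigenes (5.58% higher, 3.85% lower). Higher calls outnumber lower ones in the 3 classes of 1 FPKM and over, and lower calls outnumber higher ones under 1 FPKM.

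Within an abundance class, longer unigenes were called more often, except under 1 FPKM. From 10 to 100 FPKM the share called was 9.71% under 300 nucleotides of implied effective length, 17.0% from 300 to 1000, 23.8% from 1000 to 3000 and 32.5% at 3000 and over. The median total count over the 6 libraries in these length classes was 245.5, 1091, 3157 and 7554.5, so length and counts moved together. From 1 to 10 FPKM the share was 3.76% in the shortest class and 14.8% in the longest. Under 1 FPKM it was 4.84%, 4.44% and 4.72% in the 3 length classes from 300 nucleotides up. Over all abundance classes together, the split by direction varied little with length: rises made up 59.2%, 59.3%, 59.0% and 59.5% of the calls from the shortest to the longest class. Among the 56 unigenes of at least 100 FPKM and 3000 nucleotides, 20 were called higher and 1 lower at 25 psu. In the whole class of 100 FPKM and over 15.2% were called higher and 6.28% lower, and over all tested unigenes 5.58% and 3.85%. These 56 were singled out after the values were seen, and they had the largest median total count, 68104.5. Falls outnumbered rises among the 3005 unigenes of 1 to 10 FPKM and under 300 nucleotides, with 50 higher and 63 lower.

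**Figure D4:**
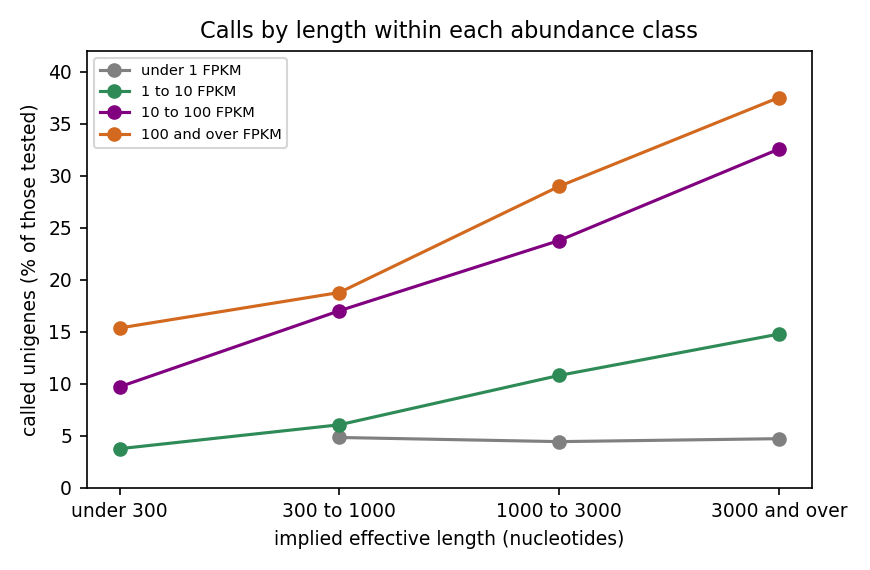
Share of tested unigenes (percent) called in either direction, by implied effective length (nucleotides, x axis) in each class of mean FPKM (lines). The share climbs with length in the 3 classes of 1 FPKM and over, to 37.5% at 100 FPKM and over, and stays at 4.44 to 4.84% under 1 FPKM, where no tested unigene was shorter than 300 nucleotides.

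Few unigenes moved far along the abundance scale. With the group means of all 246672 unigenes sorted into the same 4 FPKM classes, 215193 were in the same class at both salinities. Most of these, 162976, were under 1 FPKM at both, and 149725 of those had too few counts to test. Of the 65183 tested unigenes, 54614 were in the same class. A class higher at 25 psu were 14043, of which 5192 were tested and 1403 called higher. A class lower at 25 psu were 16652, of which 5340 were tested and 1026 called lower. Moves of 2 classes or more were 392 in each direction, nearly all in unigenes with too few counts to test: 16 of the upward ones were tested and all were called higher, and 21 of the downward ones were tested and 18 called lower. Over all tested unigenes 5.58% were called higher and 3.85% lower. A move is a difference between the group means of these same libraries, so a larger share of calls among the moves is built in. The number of unigenes at 100 FPKM or more was 984, 1006 and 1022 in the libraries at 25 psu and 937, 963 and 974 in those at 5 psu, with no overlap (exact two-sided permutation p = 0.1, the smallest possible). At 1 FPKM or more it was 67314 ± 1536 at 25 psu and 70389 ± 2947 at 5 psu (SD, n = 3 each), where the groups overlapped (exact two-sided permutation p = 0.2).

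The unigenes called higher took 16.5% ± 0.198 of the counts at 25 psu and 9.21% ± 0.613 at 5 psu (SD, n = 3 each). Those called lower took 2.97% ± 0.0217 at 25 psu and 6.02% ± 0.222 at 5 psu (SD, n = 3 each). These shares describe the calls and carry no test, since the calls were chosen on the same libraries. The top of the pool changed little in membership. Of each library's 100 most abundant unigenes by FPKM, 91 were common to the 3 libraries at 25 psu, 90 to the 3 at 5 psu and 83 to all 6. Of the 100 unigenes with the highest mean FPKM, 4 were called higher and 1 lower, by at most 1.96-fold and 2.24-fold. These 5 calls compare with the 9.43% called over all tested unigenes and the 21.5% called at 100 FPKM and over. The share of counts in a library's 100 largest unigenes was 29.7%, 30.1% and 29.0% at 25 psu, against 35.6%, 31.9% and 27.8% at 5 psu. The values at 5 psu spanned those at 25 psu, and no difference was detected (exact two-sided permutation p = 0.5).

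More unigenes were without counts at 25 psu than at 5 psu. With 0 counts in all 3 libraries of one salinity and at least 10 in each library of the other, 88 unigenes had no counts at 25 psu and 45 none at 5 psu. At a minimum of 3 counts in each library these were 519 and 222, and at a minimum of 30 they were 15 and 9. Most were rare where they were present, with a median of 0.787 FPKM at 5 psu among the 88 and 0.880 FPKM at 25 psu among the 45. The unigene with the most counts among those absent at 5 psu held 414, 323 and 227 counts at 25 psu (10.4 ± 2.67 FPKM, SD, n = 3) and 0 in every library at 5 psu, and so was at least 333-fold higher at 25 psu if up to 3 counts are allowed over the libraries at 5 psu (edgeR adjusted p = 2.25e-04). Its counterpart absent at 25 psu held 0 counts in every library there and 176, 357 and 350 counts at 5 psu (11.8 ± 3.81 FPKM, SD, n = 3), at least 284-fold lower at 25 psu with the same allowance there (edgeR adjusted p = 4.63e-04). Both were singled out for their counts. Fewer unigenes were detected overall at 25 psu, by 9851 at a minimum of 1 count and by 8817 after thinning to the smallest total (exact two-sided permutation p = 0.1 for both, the smallest possible). At minimums of 5 and 10 counts the differences were 5283 and 2909, the groups overlapped and the exact two-sided permutation p was 0.2 for both.

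Unigenes with the largest changes among those of at least 10 FPKM, and again of at least 100 FPKM, were taken from calls with at least 10 counts on the low side. Cluster-8005.101949 had the largest rise at 25 psu, where it stood at 36.1, 37.2 and 41.9 FPKM, against 0, 1.06 and 0 FPKM at 5 psu. All of its 11 counts at 5 psu were in replicate 2, and its 1176 counts at 25 psu were spread evenly over the libraries. The fitted log2 fold change was 6.75 (edgeR adjusted p = 0.00384), and its SE of 0.73 may be too small with so few counts at 5 psu. The fitted value was 5.04 with the length offset as a covariate and 4.95 on log2(FPKM + 1). Without replicate 2 at 5 psu it was 11.65, which is no bound, since the remaining libraries there were at 0. The unigene was called in all 20 alternatives run on it, with adjusted p up to 0.0401.

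Cluster-8005.8954 had the largest fall. It stood at 4.29, 10.2 and 3.46 FPKM at 25 psu, against 367, 644 and 557 FPKM at 5 psu. The groups were far apart, with 16 counts in all at 25 psu and 1602 at 5 psu. The fitted change was -6.53 on the log2 scale (SE 0.34, edgeR adjusted p = 7.35e-05). It ran from -6.25 to -7.15 with single libraries left out. Its implied effective length is only 60.1 nucleotides, so its FPKM is high for its counts and depends on the fragment length of each library, while its CPM does not use the length; on that scale it averaged 0.337 ± 0.219 at 25 psu, against 31.4 ± 6.49 at 5 psu (SD, n = 3 each).

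Cluster-8005.123191 had the largest rise among unigenes of at least 100 FPKM. Its values were 244, 261 and 288 FPKM at 25 psu, against 29.0, 28.2 and 20.1 FPKM at 5 psu. Every library at 25 psu lay far above every library at 5 psu. It differed by 3.35 on the log2 scale (SE 0.19, edgeR adjusted p = 1.11e-04), from 11226 counts at 25 psu and 1136 at 5 psu. The fitted value was 3.03 with the length offset as a covariate.

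Cluster-8005.114499 had the largest fall in that class after the unigene above, and the smallest p of all tested unigenes. It stood at 26.9, 25.3 and 25.5 FPKM at 25 psu, against 547, 541 and 605 FPKM at 5 psu. The replicates of each salinity lay close together, with a standard deviation of 0.861 FPKM at 25 psu and 35.2 FPKM at 5 psu (n = 3 each). On the log2 scale the change was -4.45 (SE 0.09, edgeR adjusted p = 1.71e-06), a 21.8-fold difference. It stayed between -4.49 and -4.39 in all 20 alternatives run on it.

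**Figure D5:**
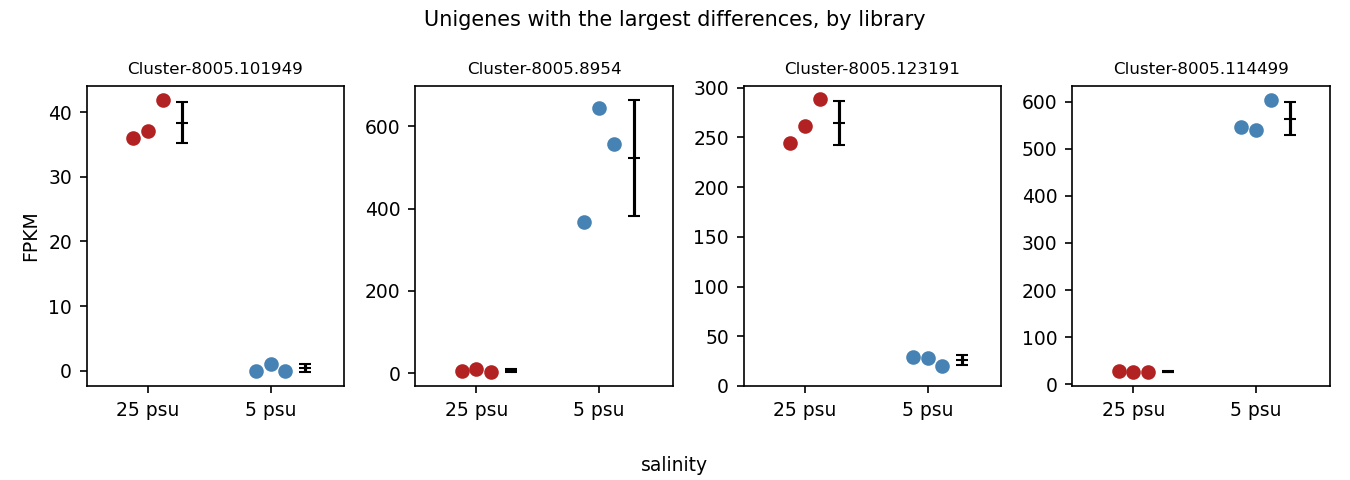
FPKM of the 4 named unigenes in each library at 25 psu and at 5 psu, with 1 point per library and the mean ± SD (n = 3) beside the points, on a separate linear axis for each unigene. In each panel the 3 libraries of one salinity lie well apart from the 3 of the other, with Cluster-8005.101949 and Cluster-8005.123191 higher and Cluster-8005.8954 and Cluster-8005.114499 lower at 25 psu.

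The best supported differences were of both signs and mostly in unigenes above the median abundance. The median level was 29.8 FPKM among the 10 unigenes with the smallest p and 21.9 FPKM among the 100, against 2.19 FPKM over all tested. Of the 10 unigenes with the smallest p, 6 were higher at 25 psu, by 5.40-fold to 15.3-fold, and 4 lower, by 19.5-fold to 78.0-fold, with mean levels of 5.87 to 295 FPKM. Of the 100 with the smallest p, 66 were higher and 34 lower, by a median of 5.32-fold and 7.35-fold, and all had an edgeR adjusted p of at most 1.13e-04. The unigene with the smallest p among those higher at 25 psu was singled out for it and stood at 99.7, 97.0 and 92.2 FPKM at 25 psu, against 11.5, 12.5 and 13.0 FPKM at 5 psu (log2 fold change 2.97, SE 0.09, edgeR adjusted p = 1.17e-05). It is long, with an implied effective length of 4070 nucleotides, and the libraries of each salinity lay close together.

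The assembly limits how far unigenes stand for genes. The identifiers fall into 59091 clusters, and a single one holds 178061 unigenes (72.2%) and 6052 of the 6144 calls. In that cluster 9.53% of the 63484 tested unigenes were called, 3591 higher and 2461 lower. The other clusters had 1699 tested unigenes and 92 calls (5.41%), 45 higher and 47 lower, with a median level of 0.720 FPKM against 2.26 FPKM in the large cluster. Of the 89 smaller clusters with a call, 3 had more than 1, and the calls of each of these had the same direction. Related transcripts, alleles and paralogs within a cluster may share reads, so the counts of single unigenes, the 4 named ones included, are uncertain to that extent.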

How the data were processed

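RNA was extracted with Trizol from whole juveniles, and 1.5 μg per sample went into libraries made with the NEBNext Ultra RNA kit, per the labels' protocols, which do not state that strand was kept and give no batch. Per the file headers, the authors deposited estimated counts (expected counts of reads) and FPKM values of every unigene, in 1 table per library. The submitters' processing notes name RSEM and Bowtie2. How the assembly was made and filtered is not given in the sources. Of the 246672 deposited counts of a library, unigenes at 0 included, 25.0 to 27.6% were not exactly whole as written.

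Counts were rounded, filtered with edgeR's filterByExpr (count minimum 10), scaled with TMM and tested on the 6 libraries with edgeR 4.0.16 in R 4.3.3 (robust quasi-likelihood F test), with Benjamini-Hochberg adjustment at 0.05. Standard errors (SE) were derived from the log2 fold change and its F statistic. CPM uses TMM-scaled library sizes. The effective length of a unigene is the one that its count, FPKM and library total imply, and a library's offset is its median deviation from the mean of the 6 over the 936 unigenes that averaged 2000 counts or more. A count of 0 allows up to 3 counts, which covers counting error only.

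Alternatives were other scalings and filters, DESeq2 1.42.0, limma 3.58.1 (voom, and log2(FPKM + 1) or log2(FPKM + 0.1)), thinning, a replicate block, all 9 libraries, the length offset, sums per assembly cluster and leaving out each library. The 4 named unigenes are the largest rise and fall among calls without overlap and with at least 10 counts in the lower group, at a mean of at least 10 FPKM and again of at least 100 FPKM, where the next in order was taken if a unigene had been named already (Cluster-8005.8954 has the largest fall in both). Samples, lists, classes and rules were chosen with earlier results of these data known. Counts of replicate pairs gave chi-square values of 3.85 to 14.6 per degree of freedom, above counting noise, so no library was a copy of another.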

Additional observations from a re-analysis of the deposited data

How the results depend on the processing

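Every called unigene that was measured kept its direction in every alternative on single unigenes, except 1 under each of the 3 limma fits on FPKM. The calls had no overlap between the salinities in these same libraries, so kept directions are no independent check. The 4 named unigenes were called in all of their alternatives. The 6144 calls (3636 higher, 2508 lower, 3777 of at least 2-fold) became 11536 (6406, 5130 and 7784) without a filter on low counts, 2022 (1247, 775 and 1708) with unfiltered limma on log2(FPKM + 1), 1063 (654, 409 and 1016) with the length offset as a covariate, and 117 (65, 52 and 111) of 1892 tested clusters with sums per assembly cluster. Limma on log2(FPKM + 1) with the filter called 2511 of at least 2-fold, where the pseudocount shrinks the folds of low unigenes. Sums per cluster fold the large cluster, with 63484 of the tested unigenes and 6052 of the 6144 calls, into a single row. Their number of calls is therefore not comparable with the 6144. The causes of the other shifts were not tested. With single libraries left out the calls ran from 2674 to 5903, those higher from 1637 to 3651, those lower from 957 to 2252 and those of at least 2-fold from 2197 to 3560. In the abundance classes these ranges were 303 to 646 under 1 FPKM, 1424 to 3380 from 1 to 10, 770 to 1647 from 10 to 100 and 124 to 230 at 100 FPKM and over. In the same order of classes, limma without a filter called 101, 1090, 705 and 126, and the fit with the offset 80, 535, 371 and 77. Without a filter the classes under 1 and from 1 to 10 FPKM held 3768 and 5603 calls. Under 1 FPKM there were 318 with at least 30 counts in 3 libraries and 343 with limma-voom. The difference in detected unigenes was -2909 at a minimum of 10 counts, against -9851 at 1 count, and -7085 to -11984 with single libraries left out.

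The titles number the replicates 1 to 3 at both salinities without saying what the numbers share. Deviations of same-numbered libraries correlated at 0.029, 0.001 and 0.033, and 4 of 6 libraries correlated best with their own number. These values do not settle whether the libraries are paired. The main fit treats them as unpaired because no label gives a batch. With the number as a replicate block there were 3779 calls (2329 higher, 1450 lower), 260 of them under 1 FPKM and 2214 from 1 to 10 FPKM. Under other scalings the calls numbered 5522 to 6141 and rises made up 55.0 to 58.3% of them, against 59.2% with TMM. With all libraries thinned to the smallest total, 741, 3636, 1506 and 197 unigenes were called from the rarest to the most abundant class, against 750, 3671, 1521 and 202.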
